A study of Mus musculus with 8 samples.

Results

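The 10 genes described here are those for the enzymes that cut prohormones in the secretory granule and for the proteins stored beside the hormone: Pcsk1, Pcsk2, Cpe, Pcsk1n, Scg5, Chga, Chgb, Scg2, Scg3 and Slc30a8. They were taken by symbol from a table of 55536 mouse genes, in which each symbol had 1 entry, and all 10 passed the filter on low counts that left 18266 genes for testing. RNA came from MIN6 cells, a line of insulin-producing β-cells from a mouse pancreatic tumour, labelled wild type in both groups. For 48 h the control cells carried pcDNA 3, an empty vector, and the others pGloMyc-Klf4, a plasmid for the transcription factor Klf4, both delivered with Lipofectamine 3000. Each group had 4 biological replicates, with replicates 1 and 2 in batch 1 and replicates 3 and 4 in batch 2. How the replicate cultures were kept apart, and the promoter that drives Klf4, are not given in the sources used here, and the plasmids differ in name beyond Klf4, so that backbone and Klf4 cannot be told apart.

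Peptide hormones are made as long precursors. In the trans-Golgi network and the maturing granule the prohormone convertases PC1/3 (Pcsk1) and PC2 (Pcsk2) cut the precursor after pairs of basic residues, and carboxypeptidase E (Cpe) removes the basic residues left at the cut end. Granins, acidic proteins that aggregate in the granule, are packed with the hormone, and in β-cells the transporter ZnT8 (Slc30a8) brings in the zinc with which insulin crystallises.

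Libraries held 45417853 to 52731176 counts. Klf4 itself, counted from plasmid and genome together, was at 36.1 to 42.8 CPM (counts divided by TMM-scaled library size) in control and at 4532 to 5853 CPM in Klf4-transfected libraries. The β-cell identity of the line was checked on 8 marker genes (Ins1, Ins2, Iapp, Pdx1, Mafa, Slc2a2, G6pc2 and Nkx6-1), all detected, whose summed CPM, on total counts alone, was 25119 to 31904 in control and 23567 to 32013 in Klf4-transfected libraries. Ins2 made up most of this sum. Of the 8 genes, 4 were called lower with Klf4: Mafa (log2 fold change -0.18), G6pc2 (-0.13), Pdx1 (-0.12) and Iapp (-0.07). With an offset for exonic GC and length, the value for Iapp was 0.02. Mafa, G6pc2 and Pdx1 fell by amounts like those of the genes described here. Of all tested genes, 15.5% were called lower. Among the 1055 genes at least as abundant as the lowest of those described here, the share was 35.5%. Whether 4 of 8 exceeds these shares was not tested. Markers of other cells were low: 58.9 to 88.4 against 54.3 to 94.1 for the α-cell gene Gcg, at most 0.103 against 0.209 for 2 δ-cell genes, at most 0.276 against 0.212 for the PP-cell gene Ppy, and 1.36 to 3.9 against 1.27 to 2.79 for 4 acinar genes, of which Amy2a1 was at 0 throughout. The summed level of 4 fibroblast genes was higher with Klf4, 20.1 to 26.5 against 2.57 to 3.85. Most of this came from Dcn, at most 0.101 in control and 14.2 to 21.3 in Klf4-transfected libraries. Col1a1 was also called higher, at 1.43 to 2.45 in control and 3.42 to 4.41 in Klf4-transfected libraries (log2 fold change 1.07, edgeR adjusted p 3.51e-07). Col1a2 did not pass (0.09), and Col3a1 was at most 0.0578 in any library. The part of such cells, or of lower β-cell markers, in the results was not tested, and in bulk RNA fewer cells that express a gene and less RNA per cell cannot be told apart.

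The question was how forced Klf4 changed these genes. Of the 10 genes, 6 were lower in Klf4-transfected cells and none was higher: Slc30a8, Chgb, Scg2, Pcsk1n, Pcsk2 and Scg3, with changes of -14.2% for Slc30a8 and of -8.61% to -5.03% for the other 5 (edgeR's quasi-likelihood test with a batch term, Benjamini-Hochberg adjusted p under 0.05 over all tested genes). Pcsk1, Cpe, Chga and Scg5 did not pass. None of the 10 was higher at an unadjusted p under 0.05, and none was called higher by the DESeq2 Wald test or by limma-voom, each of which called 6 lower. Of all tested genes, 15.5% were called lower and 21.1% higher, 36.6% in all. The median log2 fold change (Klf4 over control) was -0.07 over the 10 genes and -0.01 over all tested genes. All 10 are abundant, and among the 1055 genes at least as abundant as the lowest of them, a comparison chosen after the values had been seen, 35.5% were called lower, 13.3% were called higher and the median was -0.04.

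The number of calls depended on the scaling and on the batch term. When the scaling factors came from abundant genes only (average log2 CPM at or above 6), only Slc30a8, Chgb and Scg2 passed, and without the batch term only Slc30a8 and Chgb did. At an adjusted p under 0.01 in edgeR the calls were 4: Slc30a8, Chgb, Scg2 and Pcsk1n. All 10 estimates were below 0 in the analysis reported, but with that scaling Cpe and Scg5 were at 0.01, and with an offset for exonic GC and length Pcsk1, Cpe and Scg5 were at 0.01, 0.01 and 0.02. That scaling also moved the calls over all genes, of which 57.7% were higher with TMM factors and 72.7% with those factors.

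**Figure D1:**
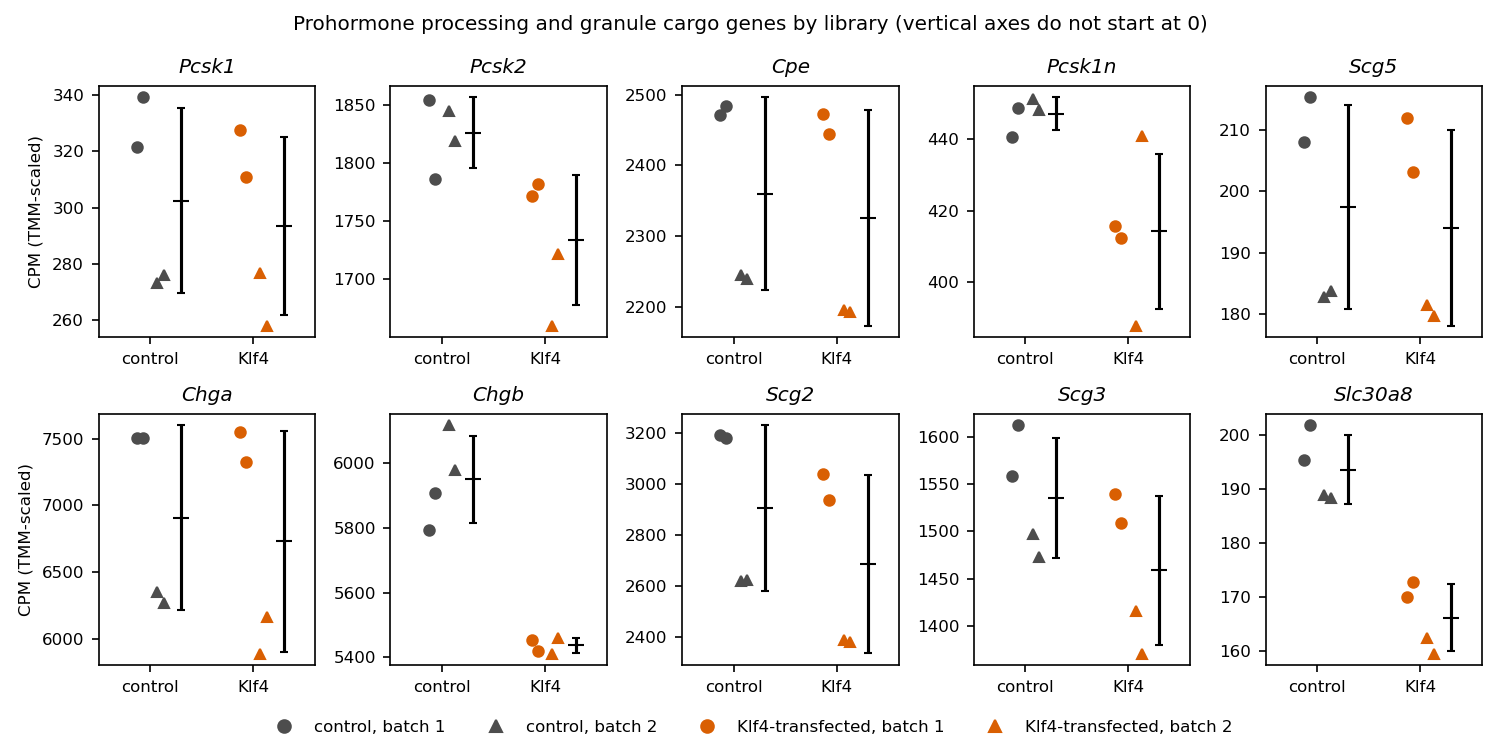
Expression of each of the 10 genes in TMM-scaled CPM (vertical axes, not starting at 0) in the 4 control and 4 Klf4-transfected libraries, circles for batch 1 and triangles for batch 2, with the group mean and SD beside the points. For Slc30a8, Chgb and Pcsk2 every Klf4-transfected library lies below every control library, while for Chga, Cpe and Scg5 the points separate by batch rather than by group. How many of all tested genes separate by group was not counted, and 15.5% of them were called lower.

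In control cells the granins and Cpe were the most abundant of the 10 per length. Divided by exonic length, control levels were 2507 ± 251 CPM per kb for Chga, 2171 ± 49.4 for Chgb, 1155 ± 129 for Scg2, 905 ± 52.1 for Cpe and 561 ± 23.0 for Scg3 (SD, n = 4). Chga and Chgb ranked 10th and 11th of the 18266 tested genes on this scale, Scg2 14th and Cpe 17th. The lower levels were 231 ± 3.84 CPM per kb for Pcsk2, 204 ± 2.10 for Pcsk1n, 126 ± 10.6 for Scg5, 98.2 ± 3.23 for Slc30a8 and 54.0 ± 5.89 for Pcsk1 (SD, n = 4), the last at rank 827. No neighbours in this order overlapped over the 4 control libraries. The 10 genes together took 2.15% to 2.37% of the counts of a control library and 2.01% to 2.29% of a Klf4-transfected one.

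**Figure D2:**
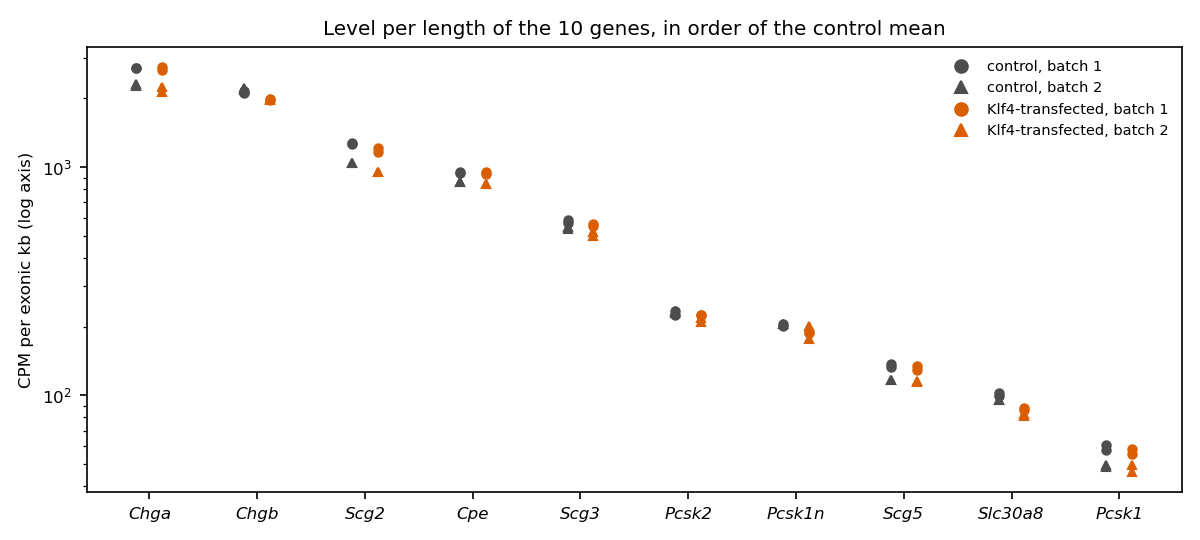
Level of each gene in CPM per kb of exon (log axis) in every library, in order of the control mean, with control in grey, Klf4-transfected in orange, circles for batch 1 and triangles for batch 2. The 4 granin genes and Cpe form the upper end, from 2507 CPM per kb for Chga to 561 for Scg3, and Pcsk1 is lowest at 54.0.

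Among the convertases, Pcsk2 fell slightly and Pcsk1 did not pass the threshold. Pcsk2 (ENSMUSG00000027419, chromosome 2, 143546156 to 143816285, plus strand), classically assigned the cut between the C-peptide and the A chain of proinsulin, had 1854, 1786, 1845 and 1819 CPM in control libraries 1 to 4, against 1771, 1782, 1659.9 and 1721 CPM in Klf4-transfected libraries 1 to 4. Every Klf4-transfected library lay under the lowest control library, by a small margin in batch 1. Means were 1826 ± 30.3 CPM without Klf4 and 1733 ± 55.7 CPM with it (SD, n = 4), with a log2 change of -0.08 ± 0.02 SE, adjusted p 0.0169 in edgeR. The log2 fold change was -0.04 in batch 1 and -0.10 in batch 2. The interaction of plasmid and batch, -0.08 with an SE of 0.04, had an adjusted p of 0.51 in edgeR. The call was lost with the scaling on abundant genes (-0.04), without the batch term, in batch 1 alone, at an adjusted p under 0.01, and with an offset for exonic GC and length (-0.04). Antisense transcripts Pcsk2os1 and Pcsk2os2 overlap 359 of the 7910 exonic bases of Pcsk2. They had 678 to 814 and 182 to 215 counts per library against at least 80654 for Pcsk2, and the strand setting of the counting is not given in the sources used here.

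Pcsk1 (ENSMUSG00000021587, chromosome 13, 75089826 to 75134861, plus strand), classically assigned the cut between the B chain and the C-peptide, had 321, 339, 273 and 276 CPM in control libraries 1 to 4, against 328, 311, 277 and 258 CPM in Klf4-transfected libraries 1 to 4. The groups overlapped in both batches, and batch 2 was lower in both groups. Means were 302 ± 33.0 CPM without Klf4 and 293 ± 31.7 CPM with it (SD, n = 4), with a log2 change of -0.04 ± 0.03 SE, adjusted p 0.269 in edgeR and a 95% interval of -0.10 to 0.02. Cpe (ENSMUSG00000037852, chromosome 8, 64592542 to 64693054, minus strand) had 2471, 2484, 2245 and 2239 CPM in control libraries 1 to 4, against 2472, 2444, 2195 and 2193 CPM in Klf4-transfected libraries 1 to 4. In batch 1 the groups overlapped, and in batch 2 both Klf4-transfected libraries lay below both control libraries. The log2 change of -0.02 ± 0.02 SE, adjusted p 0.46 in edgeR, did not pass, and its 95% interval was -0.06 to 0.02.

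Each convertase has a small binding protein in the granule, of which that of PC1/3 fell and that of PC2 did not pass. Pcsk1n (ENSMUSG00000039278, chromosome X, 7919822 to 7924410, plus strand) encodes proSAAS, whose C-terminal part inhibits PC1/3. It had 441, 449, 451 and 448 CPM in control libraries 1 to 4, against 416, 412, 388 and 441 CPM in Klf4-transfected libraries 1 to 4. Klf4-transfected library 4, at 441 CPM, reached the lowest control library and the other 3 lay below the control range. The level fell from 447 ± 4.60 to 414 ± 21.8 CPM (SD, n = 4), with a log2 change of -0.11 ± 0.03 SE, adjusted p 0.00781 in edgeR. Fitted alone, the log2 fold change was -0.11 in batch 1 and -0.11 in batch 2. The call was lost in batch 2 alone (edgeR adjusted p = 0.0568), with the scaling on abundant genes (0.0746) and without the batch term (0.0737). Eras overlaps 135 of its 2193 exonic bases and had at most 17 counts in a library.

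Scg5 (ENSMUSG00000023236, chromosome 2, 113776362 to 113829121, minus strand) encodes 7B2, the chaperone that PC2 needs to mature and that also inhibits it. It had 208, 215, 183 and 184 CPM in control libraries 1 to 4, against 212, 203, 181 and 179.8 CPM in Klf4-transfected libraries 1 to 4. The groups overlapped in batch 1, and in batch 2 the Klf4-transfected libraries lay just below the control libraries. The log2 change of -0.02 ± 0.03 SE, adjusted p 0.525 in edgeR, did not pass, with a 95% interval of -0.08 to 0.03.

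Because Pcsk1 and Pcsk2, and each convertase and its binding protein, act as pairs, their ratios per exonic kb were compared between groups. On the log2 scale the ratio of Pcsk1 to Pcsk2 was -2.03, -1.90, -2.26 and -2.22 in control libraries 1 to 4 and -1.94, -2.02, -2.09 and -2.24 in Klf4-transfected libraries 1 to 4. The groups overlapped in each batch, and the difference was 0.03 (-0.01 in batch 1, 0.08 in batch 2; two-sided exact permutation p = 0.829). The difference was 0.07 for Pcsk1 to Pcsk1n (0.05 and 0.08 within batches; exact p = 0.714) and -0.05 for Pcsk2 to Scg5 (-0.01 and -0.09; exact p = 0.514). With the ratio of Chga to Chgb given further on, 4 ratios were compared, and the adjusted exact permutation p was 0.829 for each. Leaving out 1 library moved the difference to between 0.01 and 0.16 for Pcsk1 to Pcsk1n and to between -0.10 and -0.01 for Pcsk2 to Scg5. The smallest p the 70 relabellings of 4 against 4 allow is 0.0286.

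**Figure D3:**
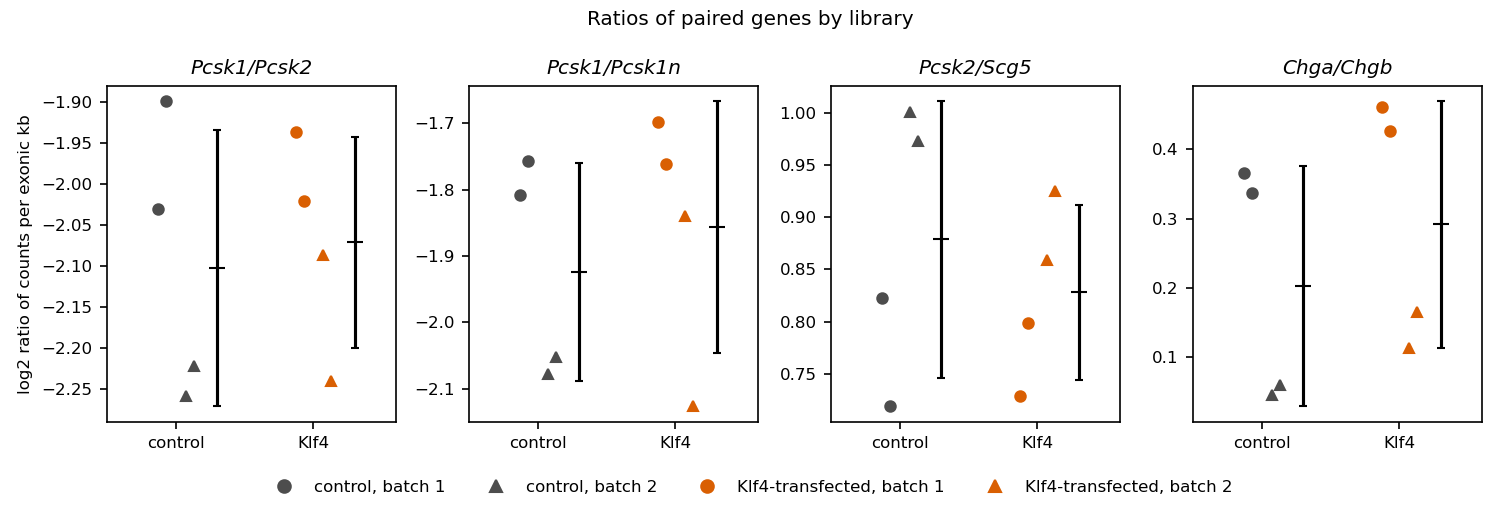
Log2 ratio of counts per exonic kb for the 4 pairs of genes in every library (axes do not start at 0), circles for batch 1 and triangles for batch 2, with group mean and SD beside the points. The ratio of Chga to Chgb is higher with Klf4 within each batch, by 0.09 in both, and lower in batch 2 than in batch 1; in the other 3 panels the groups overlap in at least 1 batch.

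Of the granins, Chgb and Scg2 fell most, Scg3 less, and Chga did not pass, an order that changed with the offset for exonic GC and length (Chgb -0.14, Chga -0.10, Scg2 -0.07, Scg3 -0.03). Chgb (ENSMUSG00000027350, chromosome 2, 132781278 to 132795079, plus strand), chromogranin B, had 5794, 5908, 6118 and 5979 CPM in control libraries 1 to 4, against 5454, 5421, 5412 and 5461 CPM in Klf4-transfected libraries 1 to 4. The 4 Klf4-transfected libraries lay close together and all below the control libraries. Means were 5949.9 ± 135 CPM without Klf4 and 5437 ± 24.0 CPM with it (SD, n = 4), with a log2 change of -0.13 ± 0.02 SE, adjusted p 1.4e-05 in edgeR. Fitted by batch, it was -0.11 in batch 1 and -0.14 in batch 2. Chgb passed in all 22 alternative analyses, with log2 fold changes from -0.16 to -0.10.

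Scg2 (ENSMUSG00000050711, chromosome 1, 79434669 to 79440120, minus strand), secretogranin II, the precursor of the peptide secretoneurin, had 3194, 3182, 2622 and 2626 CPM in control libraries 1 to 4, against 3039, 2937, 2389 and 2383 CPM in Klf4-transfected libraries 1 to 4. Within each batch both Klf4-transfected libraries lay below both control libraries, but the groups overlapped across batches. Means were 2906 ± 325 CPM without Klf4 and 2687 ± 350.2 CPM with it (SD, n = 4), with a log2 change of -0.12 ± 0.02 SE, adjusted p 0.000138 in edgeR. Fitted by batch, it was -0.10 in batch 1 and -0.13 in batch 2. Scg2 passed in all 22 alternatives but the fit without a batch term (edgeR adjusted p = 0.461), with log2 fold changes from -0.14 to -0.07, the last with the offset for exonic GC and length.

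Scg3 (ENSMUSG00000032181, chromosome 9, 75643189 to 75684056, minus strand), secretogranin III, which binds chromogranin A and cholesterol-rich granule membrane, had 1559, 1612, 1497 and 1472 CPM in control libraries 1 to 4, against 1540.0, 1509, 1416 and 1371 CPM in Klf4-transfected libraries 1 to 4. As for Scg2, the groups were apart within each batch and overlapped across batches. Means were 1535 ± 63.0 CPM without Klf4 and 1459 ± 78.9 CPM with it (SD, n = 4), with a log2 change of -0.07 ± 0.02 SE, adjusted p 0.0141 in edgeR. Fitted by batch, it was -0.06 in batch 1 and -0.08 in batch 2. Its call was lost with the scaling on abundant genes (-0.04), the offset for GC content and length (-0.03), in batch 1 alone, without the batch term and at an adjusted p under 0.01.

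Chga (ENSMUSG00000021194, chromosome 12, 102554969 to 102565028, plus strand), chromogranin A, the most abundant of the 10, had 7509, 7509, 6349.7 and 6271 CPM in control libraries 1 to 4, against 7553, 7328, 5889 and 6159.6 CPM in Klf4-transfected libraries 1 to 4. In batch 1 the groups overlapped, and in batch 2 both Klf4-transfected libraries lay below both control libraries. Its log2 change of -0.04 ± 0.02 SE, adjusted p 0.144 in edgeR, did not pass, with a 95% interval of -0.08 to 0.00. It did pass with the offset for GC content and length (-0.10, edgeR adjusted p = 8.99e-05), with no filter on low counts (-0.05, adjusted p = 0.00763), and without Klf4-transfected replicate 1 (-0.06, adjusted p = 0.0315). The log2 ratio of Chga to Chgb per exonic kb was 0.37, 0.34, 0.05 and 0.06 in control and 0.46, 0.43, 0.11 and 0.17 in Klf4-transfected libraries, higher with Klf4 in each batch by 0.09. Leaving out 1 library, which unbalances the batches, gave 0.03 to 0.15. Relabelling within batches gave an exact permutation p of 0.0556, the smallest the 36 such relabellings allow, against 0.514 over all 70. This p is not adjusted for the 4 ratios. For the others the exact permutation p within batches was 0.667 for Pcsk1 to Pcsk2, 0.5 for Pcsk1 to Pcsk1n and 0.278 for Pcsk2 to Scg5.

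Promoter sequences are shown for Chgb and Scg2, the granins that fell most in the analysis reported, and for Pcsk1 and Chga, which did not pass in it, because a motif recurs in them. This grouping depends on the analysis: with the offset for exonic GC and length Chga passed (-0.10) and Scg2 was at -0.07. Windows from 250 bases before to 50 after the transcript start, from RefSeq on GRCm38.p6, matched 8 of the 10 genes by symbol, all but Cpe and Slc30a8. The motifs TGACGTCA, TGACG and CACCC were searched on both strands. TGACGTCA is the palindromic cAMP response element, TGACG is its shorter form and is contained in it, and CACCC is a core bound by Klf proteins. Only the 250 bases before the start are printed. Capitals mark TGACG and CACCC and their reverse complements CGTCA and GGGTG, so that TGACGTCA appears as 1 block.
Chgb (chr2:132781392-132781641, plus strand): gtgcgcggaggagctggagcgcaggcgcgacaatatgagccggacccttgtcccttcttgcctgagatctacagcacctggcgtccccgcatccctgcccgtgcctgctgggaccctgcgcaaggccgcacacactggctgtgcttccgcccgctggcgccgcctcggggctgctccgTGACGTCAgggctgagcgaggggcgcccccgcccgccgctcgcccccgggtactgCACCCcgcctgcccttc
Scg2 (chr1:79440027-79440276, minus strand): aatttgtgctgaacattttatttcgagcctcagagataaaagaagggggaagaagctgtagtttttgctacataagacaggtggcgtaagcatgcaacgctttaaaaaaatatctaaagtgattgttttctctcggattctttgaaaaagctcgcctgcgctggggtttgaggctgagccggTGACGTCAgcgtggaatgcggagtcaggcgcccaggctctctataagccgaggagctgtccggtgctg
Pcsk1 (chr13:75089607-75089856, plus strand): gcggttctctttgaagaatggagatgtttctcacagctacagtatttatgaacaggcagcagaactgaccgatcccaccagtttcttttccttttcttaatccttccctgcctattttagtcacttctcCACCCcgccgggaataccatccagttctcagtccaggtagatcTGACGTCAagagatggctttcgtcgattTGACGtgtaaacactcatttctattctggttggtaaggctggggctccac
Chga (chr12:102554691-102554940, plus strand): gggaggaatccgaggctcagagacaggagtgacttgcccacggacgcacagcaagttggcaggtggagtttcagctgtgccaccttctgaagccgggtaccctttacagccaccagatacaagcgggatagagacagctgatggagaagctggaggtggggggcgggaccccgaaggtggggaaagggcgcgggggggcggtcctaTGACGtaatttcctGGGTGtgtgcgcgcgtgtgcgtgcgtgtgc
TGACGTCA was present in 3 of the 8 windows, against 1.79% of all 32851 promoter windows in the table. It began 72 bases before the start in Chgb, 68 in Scg2 and 78 in Pcsk1. The GENCODE gene model begins upstream of the RefSeq start in 3 of these genes, so that the whole printed window of Chgb, and the end of those of Scg2 and Pcsk1, lie inside the gene model. Chga held TGACG alone, 44 bases before its start, and TGACG was present in 7 of the 8 windows (all but Pcsk1n) and in 20.8% of all windows. CACCC was present in 5 of the 8 windows and in 57.5% of all windows. It was present in Chgb and Pcsk2, which fell, and in Pcsk1, Chga and Scg5, which did not pass, and no match was found in the windows of Scg2, Scg3 and Pcsk1n. Of the genes with TGACGTCA, Chgb and Scg2 fell and Pcsk1 did not pass.

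Slc30a8 had the largest decrease of the 10. The gene (ENSMUSG00000022315, chromosome 15, 52295553 to 52335798, plus strand) encodes ZnT8. It had 195, 202, 189 and 188 CPM in control libraries 1 to 4, against 170.0, 173, 162 and 159.6 CPM in Klf4-transfected libraries 1 to 4. All 4 Klf4-transfected libraries lay below the lowest control library, in both batches. Means were 194 ± 6.37 CPM without Klf4 and 166 ± 6.20 CPM with it (SD, n = 4), a ratio of 0.858 and a log2 change of -0.22 ± 0.03 SE, adjusted p 5.23e-07 in edgeR (95% interval -0.28 to -0.17). The log2 fold change was -0.22 in each batch, and Slc30a8 passed in all 22 alternatives, with values from -0.25 to -0.16.

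**Figure D4:**
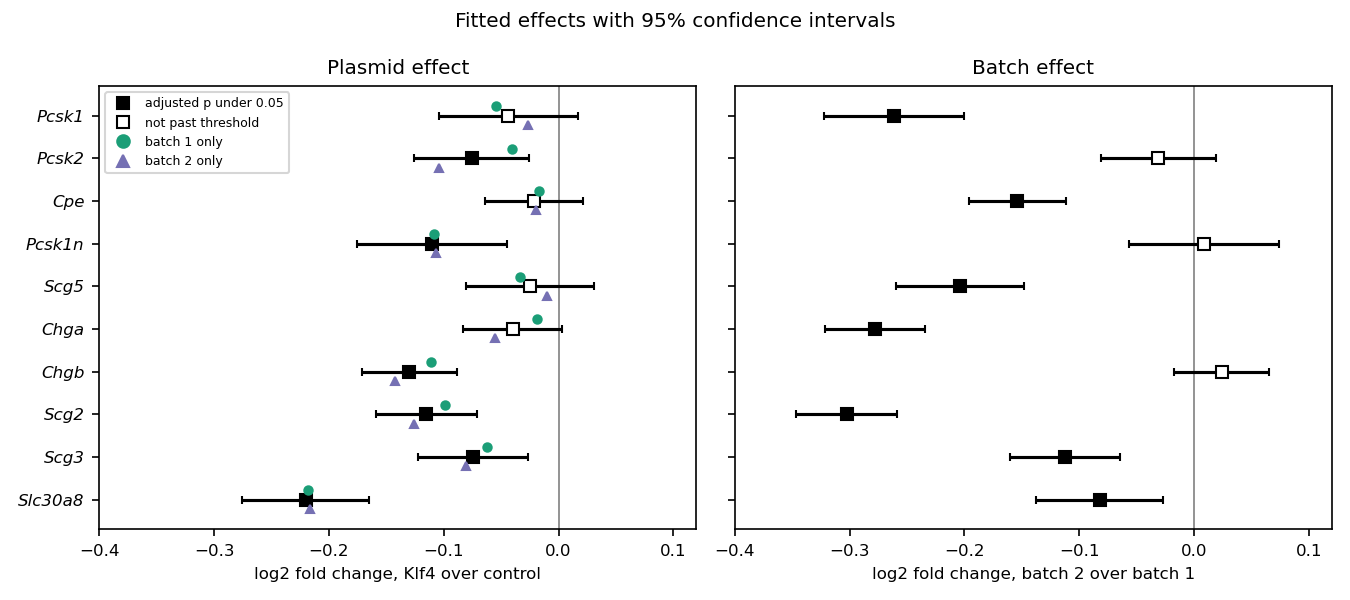
Fitted log2 fold change of each gene with its 95% confidence interval, Klf4 over control on the left and batch 2 over batch 1 on the right; filled squares passed an adjusted p of 0.05, and the small circles and triangles on the left are fits of batch 1 or batch 2 alone. On the left all 10 estimates lie between -0.22 and -0.02, although those of Cpe and Scg5 turn to 0.01 with the scaling on abundant genes; on the right Scg2, Chga and Pcsk1 lie at -0.30, -0.28 and -0.26.

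The genes whose profile over the 8 libraries lay nearest to that of Slc30a8, by the root mean square difference of centred log2 CPM among the 6646 genes whose average log2 CPM reached 5, were Ddx50, Zfp236, Zfp644, Zgpat and Zkscan1. Their differences from Slc30a8 were 0.025 to 0.030, against a median of 0.125 over the genes ranked. Their log2 fold changes lay between -0.21 and -0.20, as the choice implies. Ddx50 encodes an RNA helicase, and the exons of the other 4 overlap those of another gene, so their counts are less certain.

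The batches differed more than the groups for several of these genes. Between batch 2 and batch 1, 7 of the 10 genes differed, all lower in batch 2 (edgeR adjusted p under 0.05). In either direction 25.1% of all tested genes, and 48.5% of the 1055 genes at least as abundant as these, differed. By direction, 2127 of the 18266 tested genes were lower in batch 2 and 2449 were higher. The split among the 1055 abundant genes was not counted. The log2 difference was -0.30 (SE 0.02, edgeR adjusted p 9.18e-10) for Scg2, -0.28 (SE 0.02, edgeR adjusted p 2.64e-09) for Chga and -0.26 (SE 0.03, edgeR adjusted p 8.91e-07) for Pcsk1. It was -0.20 (SE 0.03, edgeR adjusted p 7.4e-06) for Scg5, -0.15 (SE 0.02, edgeR adjusted p 8.12e-06) for Cpe and -0.11 (SE 0.02, edgeR adjusted p 0.000929) for Scg3. For Slc30a8 it was -0.08 (SE 0.03, edgeR adjusted p 0.0263), a call kept when control replicate 1 or Klf4-transfected replicate 3 was left out and lost without any of the other 6 libraries, with values of -0.09 to -0.07. Chgb (0.02), Pcsk1n (0.01) and Pcsk2 (-0.03) did not pass. What the batches are beyond their label is not given. No interaction of plasmid and batch passed for the 10 genes, by edgeR, by the DESeq2 Wald test or by limma-voom, and none had an unadjusted edgeR p under 0.05. Over all tested genes 0.766% passed.

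Other genes of the pathway were described from 5 lists of 100 genes, of which 93 were tested and 41 changed, 27 higher and 14 lower. The share called was 44.1%, against 36.6% of all tested genes, of which 21.1% were higher and 15.5% lower. Among other processing enzymes 8 of 17 tested genes rose and 4 fell, with a median log2 fold change of 0.13. With at least 1 CPM required in at least 4 libraries, 7 rose and 3 fell, and Qpct was not tested. Cpxm1, a relative of Cpe without carboxypeptidase activity, went from 0.290 ± 0.0556 to 5.31 ± 1.66 CPM (SD, n = 4), a log2 change of 4.16 ± 0.19 SE with adjusted p 4.92e-14 in edgeR. Cpz, a carboxypeptidase of the extracellular matrix, went from 5.47 ± 0.853 to 10.5 ± 0.723 CPM (SD, n = 4), a log2 change of 0.94 ± 0.09 SE with adjusted p 1.39e-08 in edgeR. Cpm, a carboxypeptidase of the cell surface, went from 25.9 ± 1.91 to 39.4 ± 1.34 CPM (SD, n = 4), a log2 change of 0.61 ± 0.05 SE with adjusted p 8.32e-10 in edgeR. All 3 were of low abundance beside Cpe, which did not pass. Pcsk7, a convertase of the constitutive pathway, went from 38.0 ± 1.21 to 45.7 ± 0.937 CPM (SD, n = 4), a log2 change of 0.27 ± 0.04 SE with adjusted p 6.78e-06 in edgeR. Pam, which amidates peptide ends in the granule and was named after its values had been seen, fell from 397 ± 42.5 to 366 ± 37.9 CPM (SD, n = 4), a log2 change of -0.12 ± 0.03 SE with adjusted p 0.00216 in edgeR. The other enzymes that fell, likewise outside the naming rule, were Mbtps1 (-0.08), Ctsl (-0.08) and Ece1 (-0.08). The calls of these 3 were lost with the scaling on abundant genes and at an adjusted p under 0.01, which left 1 of the 4 lower, Pam. With the replicate number as a block the Mbtps1 call was lost (edgeR adjusted p 0.0585). It was also lost without control replicate 3 (-0.08) or Klf4-transfected replicate 3 (-0.07), and that of Ctsl without control replicate 4 (-0.07).

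Among other granule cargo and membrane proteins 3 of 13 tested genes rose, 2 fell and 8 did not pass, with a median of -0.02. Vgf, a granin-like precursor of several peptides, rose from 837 ± 122 to 965 ± 83.8 CPM (SD, n = 4), a log2 change of 0.21 ± 0.03 SE with adjusted p 2.81e-05 in edgeR, opposite in direction to Chgb and Scg2, and the change was 0.13 in batch 1 alone or with the offset for exonic GC and length. Slc17a9, the vesicular nucleotide transporter, rose from 4.69 ± 1.66 to 6.34 ± 1.10 CPM (SD, n = 4), a log2 change of 0.47 ± 0.11 SE with adjusted p 0.00175 in edgeR. In batch 1 alone its call was lost (0.25, edgeR adjusted p 0.147), and in batch 2 alone the change was 0.73. The hormone genes Ins1 (-0.02) and Ins2 (-0.03) did not pass, and Iapp, named after its values had been seen, fell by 0.07 on the log2 scale (edgeR adjusted p 0.0141), a call lost with the scaling on abundant genes (-0.03) and turned to 0.02 with the offset for exonic GC and length. Nucb1, which encodes a calcium-binding Golgi protein, rose by 0.09 and the lysosomal α-glucosidase gene Gaa fell by 0.09 on the log2 scale (edgeR adjusted p 0.0091 and 0.0074). The Gaa call was lost with the scaling on abundant genes (-0.06) and in batch 1 alone (-0.06), and its change was -0.16 with the offset. The Nucb1 call was lost without control replicate 1, 2 or 3 or Klf4-transfected replicate 1, where the log2 change was 0.07 and the edgeR adjusted p at most 0.0835.

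Among granule biogenesis and sorting genes 2 of 19 tested genes rose, 2 fell and 15 did not pass, with a median of 0.01. Ccdc186, a Golgi protein needed for granule cargo sorting, fell from 49.6 ± 3.57 to 40.5 ± 1.45 CPM (SD, n = 4), a log2 change of -0.29 ± 0.04 SE with adjusted p 6.54e-06 in edgeR. Its partner Eipr1 and the granule biogenesis factor Hid1 rose, by 0.17 and 0.11 on the log2 scale (edgeR adjusted p 0.0143 and 0.00686). The Eipr1 call was lost without control replicate 2 (0.11) or 4 (0.13) or Klf4-transfected replicate 1 (0.15) or 4 (0.15), and the Hid1 call without control replicate 3 (0.08) or Klf4-transfected replicate 4 (0.08). With the offset for exonic GC and length the Hid1 call was also lost (0.05, edgeR adjusted p 0.128), as it was in batch 1 alone (0.07). Ica1, the islet autoantigen that binds maturing granules, fell by 0.11 (edgeR adjusted p 0.00908), a call lost with the scaling on abundant genes (-0.07) and in batch 1 alone (-0.09).

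Among subunits of the V-ATPase, the proton pump that acidifies the granule, 6 of 21 tested genes rose, none fell and 15 did not pass, with a median of 0.03, where 21.1% of all tested genes were higher. The count of higher subunits was 9 with the scaling on abundant genes and 11 with the offset for exonic GC and length, and in batch 1 alone 4 were higher and 1, Atp6v1h, lower (-0.13). At an unadjusted p under 0.05 edgeR gave 7 higher and 0 lower, and the DESeq2 Wald test and limma-voom also called 6 higher and 0 lower (unadjusted, 6 and 8 higher and 1 lower in each). Tcirg1, the a3 subunit, rose from 7.08 ± 0.986 to 21.2 ± 2.44 CPM (SD, n = 4), a log2 change of 1.58 ± 0.09 SE with adjusted p 1.58e-12 in edgeR. Its log2 fold change was 1.26 in batch 1 and 1.91 in batch 2, a difference that passed (edgeR adjusted p = 0.00484). The widely expressed subunits Atp6v0b, Atp6v0c and Atp6v0d1 rose by 0.12, 0.10 and 0.08 (edgeR adjusted p 0.00165, 0.0149 and 0.0248). The Atp6v0d1 call held only when control replicate 3 was the library left out, and the other 7 such fits gave 0.06 to 0.08. The Atp6v0c call was lost without control replicate 1, 3 or 4 or Klf4-transfected replicate 1 or 3, with values of 0.07 to 0.09. The remaining 2 subunits that rose, Atp6v1c2 and Atp6v0a4, had average levels of at most 1.89 CPM in either group.

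Among zinc transporters other than Slc30a8 and the metallothioneins 8 of 23 tested genes rose and 6 fell, with a median of 0.00. With at least 1 CPM required in at least 4 libraries, 5 rose and 5 fell. Slc30a2, Slc30a3 and Slc39a5 were then not tested, and the Slc39a8 call was lost. Slc39a4, a zinc importer of the plasma membrane, rose from 1.15 ± 0.171 to 6.24 ± 2.09 CPM (SD, n = 4), a log2 change of 2.40 ± 0.16 SE with adjusted p 3.26e-11 in edgeR. Slc30a1, the exporter at the plasma membrane, rose from 29.5 ± 1.73 to 36.6 ± 2.16 CPM (SD, n = 4), a log2 change of 0.31 ± 0.05 SE with adjusted p 2.11e-05 in edgeR, the opposite direction to Slc30a8. Slc39a7 and Slc39a11 rose by 0.20 and 0.20 (edgeR adjusted p 0.0179 and 0.00823). The first call was lost without control replicate 2 (0.15) or Klf4-transfected replicate 2 (0.17) and the other without control replicate 3 (0.15). The Slc39a7 call was also lost with the offset for exonic GC and length (0.16) and in batch 2 alone (0.17). The 6 that fell, outside the naming rule, were Slc30a4, Slc30a5, Slc30a9, Slc39a8, Slc39a14 and Mt1, with log2 changes of -0.18 to -0.09. The scaling on abundant genes left 4 of the 6 calls and batch 1 alone left 1, and the Slc39a8 call was lost with the replicate number as a block (edgeR adjusted p 0.0678). With the offset for exonic GC and length 6 genes of this list rose and 3 fell. The calls of Slc30a4 (-0.08), Slc30a9 (-0.05) and Slc39a8 (-0.02) were then lost. The Slc39a8 call was also lost without control replicate 4 (-0.06) or Klf4-transfected replicate 3 (-0.10) or 4 (-0.07), and that of Slc30a4 without Klf4-transfected replicate 2 (-0.10). In batch 1 alone the Slc39a11 change was 0.11 and its call was lost. As a limit of the counting, exons of Slc39a7, Slc30a1, Slc30a4, Pcsk7, Pam, Ctsl and Atp6v0b overlap those of another gene, which leaves their counts less certain. The same holds for Atp6v1h, Atp6v1c2, Atp6v0a4 and Pcsk6.

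**Figure D5:**
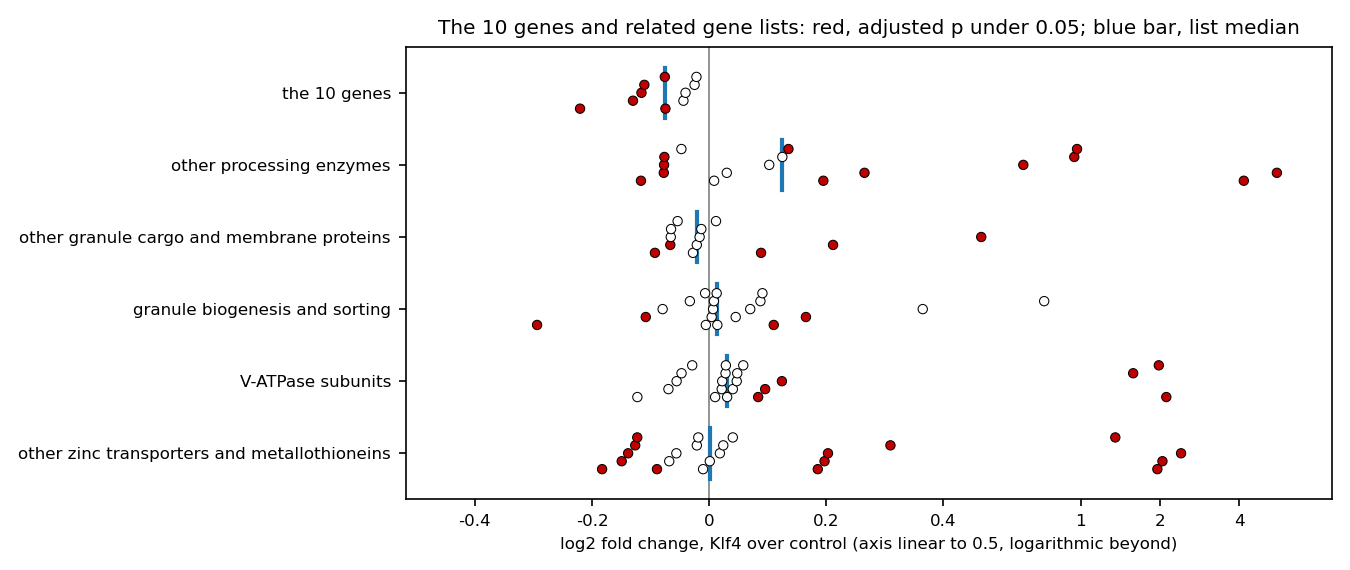
Log2 fold change of Klf4 over control for the 10 genes and for the tested genes of 5 related lists, 1 point a gene, red where the adjusted p was under 0.05, with the median of each list as a blue bar; the axis is linear to 0.5 and logarithmic beyond. The 10 genes lie between -0.22 and -0.02 (Cpe and Scg5 at 0.01 with the scaling on abundant genes), while each of the other lists holds genes on both sides of 0.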

How the data were processed

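Whole-number read counts per gene, 1 column per library, were used as the authors deposited them, neither normalised nor pooled. Per the submitters' processing notes, FastQC, STAR, featureCounts and edgeR were used with the mm10 build, without versions; trimming with cutadapt is known from the name of the deposited table. The strand setting is not given in the sources used here. Coordinates and exonic lengths came from GENCODE M21 (GRCm38), which holds all gene identifiers of the table. Islets are mentioned in the extraction text of the labels, but the samples are all named MIN6 and were treated as such.

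Counts were tested in edgeR 4.0.16 (limma 3.58.1, R 4.3.3) with filterByExpr (minimum count 10), TMM scaling and terms for batch and plasmid, with Benjamini-Hochberg adjustment over 18266 genes. This removed 37270 of the 55536 genes. The coefficient of biological variation was 4.08%. Since the labels do not say how cultures were separated, p-values measure the spread between these samples. The Klf4 counts hold plasmid and endogenous reads together. Levels between genes were compared per exonic kb, and ratios by exact permutation (scipy 1.17.1). The fitting script was tested on simulated data, with changed genes drawn from tested genes of all abundances. It recovered 26% of 1.1-fold and 66% of 1.25-fold changes, and 3.65% of its calls were false. A gene that did not pass may therefore still have changed. Replicates differed beyond counting noise (chi-square per degree of freedom 4.23 to 5.71 within batches), so none was a duplicate.

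Same-numbered libraries of the groups deviated together (correlations 0.43 to 0.59 over 10485 genes). After batch means were removed the correlations were -0.05 and 0.06, so beyond the shared batch no pairing by number was seen.

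The 10 genes and all lists were chosen with earlier results of these data known. Named were the 10 genes, Klf4, the 5 genes nearest in pattern to the gene with the lowest adjusted p, and per list the 4 called genes with the largest change and an average log2 CPM of at least 1; exceptions are stated where they occur. Alternatives were DESeq2 1.42.0 (size factors, Wald test), limma-voom, other filters and scalings, a GC and length offset, single batches, no batch term, a replicate block, an adjusted p under 0.01 and leaving out each library.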

Additional observations from a re-analysis of the deposited data

Results flagged for a closer look

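Klf4-transfected replicate 2 stood apart in depth. Its total was 45417853 counts, against 51891997 to 52731176 in the other 3 Klf4-transfected libraries, a gap larger than a test for a single stray value among 4 allows (critical value 0.829). In all, 34 groups of 4 values were checked and 1 was singled out, where chance gives about 1 in 20, or 1.7. Without this library 6 of the 10 genes were called lower and 6451 genes were called in all, against 6684 with it.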

How the results depend on the processing

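Over all results and alternatives, 1182 of 1297 alternative values kept their direction and their side of the threshold, or stayed within the allowed range for counts. For the plasmid effect, 6 of the 10 genes were called, but 3 when scaling used only abundant genes (average log2 CPM at or above 6) and 2 without the batch term, where the calls over all genes fell to 4116 and those in the lists to 18. With batch 1 alone, 24 list genes were called. The estimate turned above 0 for Cpe (0.0132) and Scg5 (0.00993) with that scaling, and for Pcsk1 (0.0148), Cpe (0.00728) and Scg5 (0.0230) with the GC and length offset. At an adjusted p under 0.01 the batch effect was called for 2879 genes and the interaction for 62; with no filter the interaction was called for 265. The cause was not tested, beyond the fewer libraries or stricter threshold itself.

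Leaving out each library in turn gave 6 to 7 of the 10 genes and 5889 to 7074 genes called for the plasmid, 37 to 42 list genes, 6 to 7 of the 10 genes for the batch, and 48 to 261 genes for the interaction, where the lone library of an arm is assumed to vary like the others. The interaction count was 261 without control replicate 1, 78 and 77 without control replicates 3 and 4, and 82 and 48 without Klf4-transfected replicates 1 and 2. The batch difference of Pcsk1n ranged from -0.0222 to 0.0459, with the value below 0 without control replicate 1 or Klf4-transfected replicate 4. The log2 ratio of Pcsk1 to Pcsk2 ranged from -0.0206 to 0.0991, below 0 without control replicate 3, control replicate 4 or Klf4-transfected replicate 1, and was -0.0140 in batch 1 alone. The same ranges were 0.01 to 0.16 for Pcsk1 to Pcsk1n, -0.10 to -0.01 for Pcsk2 to Scg5 and 0.03 to 0.15 for Chga to Chgb.

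When a replicate block replaced the batch term, the same 6 of the 10 genes, 39 list genes and 6284 genes in all were called, and of the genes named only Mbtps1 (-0.08, edgeR adjusted p 0.0585) and Slc39a8 (-0.09, adjusted p 0.0678) lost their call. Combined with the GC and length offset, the block gave 0.0146 for Pcsk1, 0.00730 for Cpe and 0.0231 for Scg5. Depth was lowest for Slc30a8, which still had at least 7821 counts in every library, and limits mainly the list genes below 1 CPM.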

Other observations

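Several list genes of low abundance were higher in Klf4-transfected libraries, and are named here after their values had been seen. Qpct, which cyclises N-terminal glutamine of secreted peptides, had 0, 0, 0 and 1 counts in control libraries 1 to 4 and 23, 15, 15 and 20 in Klf4-transfected libraries 1 to 4. It passed the filter on low counts only through the Klf4-transfected libraries, where it is higher, so the filter favoured its call. Pcsk6, the convertase PACE4, had 34, 30, 43 and 55 against 64, 73, 87 and 107 counts (log2 change 0.97 ± 0.19 SE, adjusted p 0.00036 in edgeR). The V-ATPase subunits Atp6v0a4 and Atp6v1c2, known mainly from kidney and other specialised epithelia, had 27, 10, 13 and 28 against 88, 83, 86 and 98 counts and 10, 36, 29 and 16 against 75, 64, 104 and 143 counts (log2 fold changes 2.11, SE 0.26, and 1.98, SE 0.27; edgeR adjusted p 6.69e-07 and 4.02e-06). In these 4 genes the lowest Klf4-transfected library exceeded the highest control library. How many of all tested genes separate in this way was not counted, and 21.1% of them were called higher. Exons of Pcsk6, Atp6v0a4 and Atp6v1c2 overlap those of another gene by 156, 321 and 50 bases, which leaves these low counts less certain.

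Among relatives of Slc30a8, the vesicular zinc transporters Slc30a2 and Slc30a3 had 9, 3, 7 and 5 against 25, 21, 24 and 29 counts and 10, 7, 14 and 28 against 20, 29, 54 and 55 counts (log2 fold changes 1.95, SE 0.39, and 1.35, SE 0.31). Both passed the filter on low counts only with the help of the Klf4-transfected libraries, where they are higher, so the filter favoured their calls. With at least 1 CPM required in at least 4 libraries they were not tested. Slc30a8 itself had at least 7821 counts in every library, and its decrease went the opposite way. For Slc30a3 the groups overlapped over the 8 libraries but not within a batch.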
